A study of Rattus norvegicus with 6 samples.

Results

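The Notch genes examined here are 3 receptors (Notch1, Notch2 and Notch3), 3 ligands (Dll1, Jag1 and Jag2), the DNA-binding mediator Rbpj and 3 genes induced by the pathway (Hes1, Hey1 and Nrarp), in tongue tissue of rats. They were taken by gene symbol, and all 10 were among the 14405 protein-coding genes listed in each of 6 RNA-seq libraries. The control group was 3 libraries from rats without periodontitis, and the other group was 3 libraries from rats with chronic periodontitis, an inflammatory disease of the tissue that holds the teeth. All 6 were labelled as epithelium of the dorsal tongue, and the series' design names the circumvallate papilla, which carries taste buds at the base of the tongue. Strain, age, sex and the way periodontitis was produced are not given in the labels, and they do not tie a library to an animal, so the p-values below reflect variation among these 6 libraries, some of which may be technical.

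Notch signalling passes between neighbouring cells. A Delta-like or Jagged ligand on one cell binds a Notch receptor on the next, a metalloproteinase and then the gamma-secretase complex cut the receptor, and the freed intracellular domain joins Rbpj and a Mastermind coactivator on DNA. The best known targets are the Hes and Hey genes, which encode transcriptional repressors, and Nrarp, which encodes a feedback inhibitor. In stratified epithelium the pathway is known for its part in the step from basal to differentiating cells, and in blood vessels Notch3 is known as the receptor of smooth muscle cells and pericytes.

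Values are FPKM, fragment numbers scaled for transcript length and library size, which can be compared between genes. The depth behind them is unknown. Keratins of tongue epithelium were abundant (Krt13 at 4068 to 10164 FPKM, Krt14 at 440.3 to 1213 FPKM), as were Krt8 of taste buds (83.6 to 159 FPKM) and the gland lipase Lipf (30886 to 93161 FPKM). Muscle RNA was present too, with myoglobin (Mb) at 185 to 1011 FPKM, so the libraries held more than epithelium. In bulk tissue, fewer cells of a type and less RNA per cell cannot be told apart. Periodontitis 1 and 3 stood apart from the other libraries in opposite directions. The 4 most abundant gland genes took 15.2% of the FPKM sum in periodontitis 1 and 40.6% in periodontitis 3, against 23.5% to 29.4% in the other 4 libraries, and 12 suprabasal keratinocyte genes had a median deviation from the control mean of 1.24 in periodontitis 1 and -1.15 in periodontitis 3 (log2 scale). Genes listed at 0 were more numerous in these 2 libraries (218 and 174) than in the rest (71 to 124).

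Hes1 was the most abundant of the 10 genes and Dll1 was the 1 gene whose groups did not overlap, so the 250 bases before their RefSeq transcription starts (build GRCr8) are shown, 5′ to 3′ on the strand of the gene. Capitals mark each match to TGGGAA, the core of the Rbpj binding motif, or to its other strand TTCCCA. Hes1 lies on the minus strand, and its stretch is chr11:84213046-84213295. The Dll1 stretch is also on the minus strand, at chr1:64993275-64993524.
Hes1: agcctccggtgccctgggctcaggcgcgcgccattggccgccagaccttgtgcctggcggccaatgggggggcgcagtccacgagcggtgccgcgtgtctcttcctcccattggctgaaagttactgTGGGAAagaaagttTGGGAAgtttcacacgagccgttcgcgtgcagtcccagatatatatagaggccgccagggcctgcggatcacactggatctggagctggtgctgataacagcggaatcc
Dll1: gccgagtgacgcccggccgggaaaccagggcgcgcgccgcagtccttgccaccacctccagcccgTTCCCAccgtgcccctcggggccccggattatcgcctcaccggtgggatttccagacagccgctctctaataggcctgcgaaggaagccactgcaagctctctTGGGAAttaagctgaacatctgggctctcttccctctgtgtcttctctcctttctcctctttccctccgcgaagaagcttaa
The Hes1 stretch held 2 matches on the strand of the gene, which begin 123 and 109 bases before the start, 14 bases apart. The Dll1 stretch held 1 match on each strand, 185 and 82 bases before the start. Of the 33469 stretches of this length in the table, 22.1% held at least 1 match and 2.71% at least 2. RefSeq entries were found for 9 of the 10 genes (Hey1 was the exception), and matches were found for Dll1, Hes1 and Rbpj. A match is a description of these letters and not evidence of binding.

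In control tissue, Hes1 transcripts were the most abundant (42.6 ± 1.98 FPKM, SD, n = 3), and by its mean over all 6 libraries Hes1 stood at percentile 87.2 of the tested genes. Notch3 (13.1 ± 0.696), Jag2 (13.1 ± 0.593), Notch1 (13.02 ± 1.07) and Rbpj (12.99 ± 0.762) followed at nearly the same level, and the ranges of neighbours in this order overlapped. Nrarp (11.5 ± 1.23) and Jag1 (11.3 ± 1.44) also overlapped each other. Notch2 (8.24 ± 0.908), Dll1 (4.25 ± 0.239) and Hey1 (2.41 ± 0.308 FPKM) came last, and in the controls each of these 3 lay below the gene before it without overlap. Over all 6 libraries Hes1 was always first, and Dll1 and Hey1 were always the lowest, in that order.

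The comparison of the groups asked whether receptors, ligands or targets differed between periodontitis and control tissue. It was made on log2(FPKM + 1) with limma over the 13154 genes that reached 1 FPKM in at least 3 libraries, and differences below are periodontitis minus control on that scale. All 10 Notch genes were among the genes tested. None of them passed an adjusted p of 0.05 (0 of 10), and over all tested genes 0.0% passed. None had an unadjusted p under 0.05, which 2.11% of all tested genes had. In 1 of the 10, Dll1, every periodontitis library lay below every control, a pattern that 3.59% of all tested genes showed. The limma adjusted p rounded to 1.0 for each of the 10 genes.

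Dll1 encodes a Delta-like ligand and lies on chromosome 1 (57318708 to 57327379 as the tables give it, ENSRNOG00000059984; no source used here gives the build of these positions). It had 4.001, 4.26 and 4.48 FPKM in controls 1 to 3 and 3.19, 2.89 and 2.96 FPKM in periodontitis 1 to 3. The periodontitis values were close together and all below the lowest control, with a mean 0.710 times that of the controls (3.02 ± 0.155 against 4.25 ± 0.239 FPKM, SD, n = 3). The log2 difference was -0.38 ± 0.17 (SE), with a 95% confidence interval of -0.77 to 0.00201, an unadjusted limma p of 0.0509 and an adjusted p of 1.0. By p it ranked 280 among the 13154 genes. A difference this low or lower was found in 8.22% of tested genes, and together with groups that did not overlap in 2.27%. The exact two-sided permutation test of the FPKM means gave p = 0.1, the smallest that 3 against 3 libraries allow. Groups that do not overlap always give this value, so it adds nothing to the separation described above.

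Leaving out any 1 library kept the Dll1 difference between -0.42 and -0.35. With the 2 libraries that stood apart left out, a comparison added after the data were seen, it was -0.43 (periodontitis 2 alone). Because the groups did not overlap, leaving out libraries could change the size of this difference but not its sign. As a share of the summed FPKM of Dll1, Jag1 and Jag2, Dll1 made up 13.4%, 16.1% and 15.05% in controls 1 to 3 and 11.9%, 10.4% and 12.7% in periodontitis 1 to 3, again without overlap. This share and the ratios that follow use the same Dll1 values, so they are not separate evidence. Relative to Notch1, Dll1 had 0.282, 0.335 and 0.369 of its FPKM in the controls and 0.276, 0.197 and 0.278 in periodontitis. The smallest control ratio and the largest periodontitis ratio differed by little. Relative to Jag1 the groups overlapped (0.321 to 0.439 against 0.230 to 0.336).

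Jag2, a Jagged ligand on chromosome 6 (137711155 to 137733026), had 13.3, 12.4 and 13.5 FPKM in the controls and 11.2, 12.4 and 11.6 FPKM in periodontitis 1 to 3. The groups met at 12.4 FPKM, the value of control 2 and of periodontitis 2, and the other periodontitis libraries lay below all controls. The log2 difference was -0.14 ± 0.15 (SE; 95% interval -0.50 to 0.21). Of the 10 genes Jag2 varied least, with an SD of 0.10 on the log2 scale over the 6 libraries, lower than in all but 3.31% of tested genes. Jag1, the other Jagged ligand (chromosome 3, 130079361 to 130114770), had 12.5, 9.69 and 11.7 FPKM in the controls and 12.4, 12.6 and 8.83 FPKM in periodontitis. Its lowest value was in periodontitis 3 and its highest in periodontitis 2, on either side of the controls, and the difference was -0.01 (95% interval -0.47 to 0.45).

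**Figure D1:**
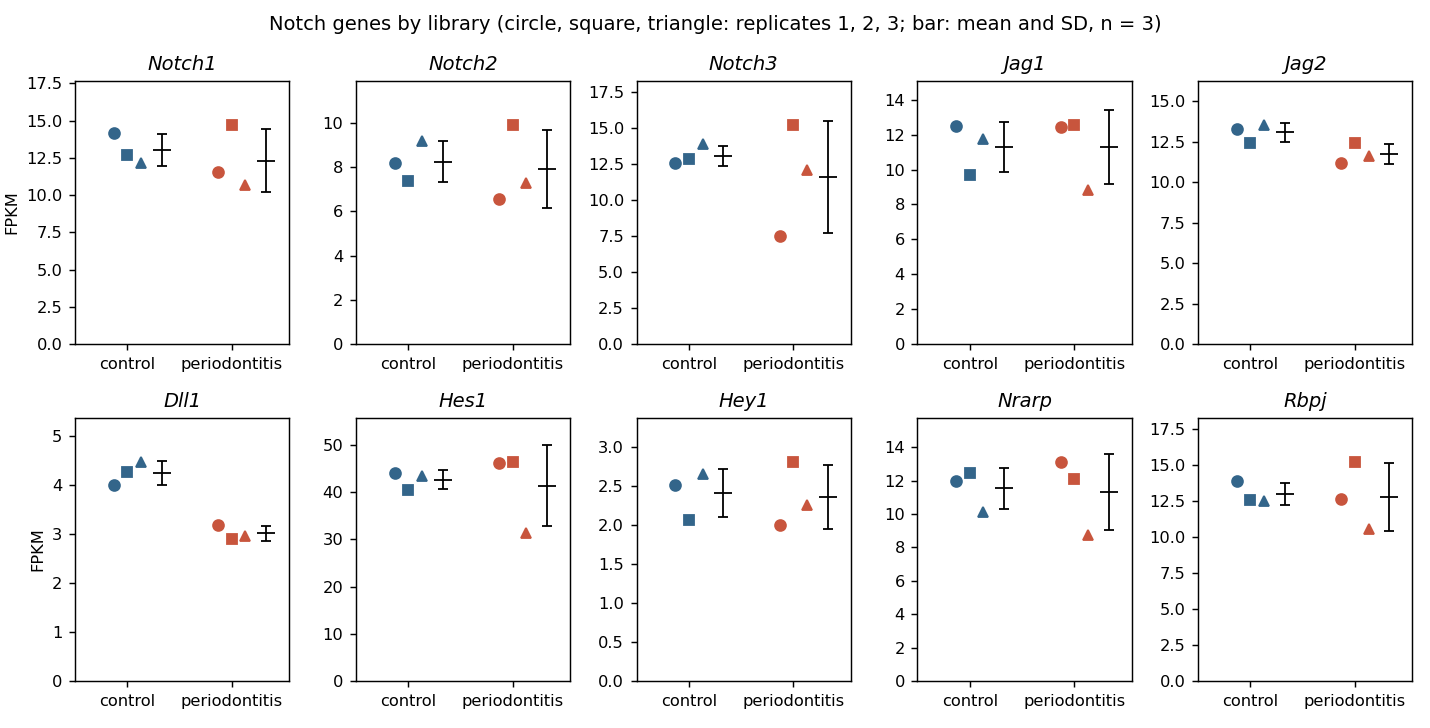
FPKM of the 10 Notch genes in each library (vertical axes start at 0; circle, square and triangle are replicates 1, 2 and 3; bars are the mean and SD of 3 libraries). Dll1 is the panel in which all periodontitis libraries (2.89 to 3.19 FPKM) sit below all controls (4.001 to 4.48 FPKM), and Notch3 shows 1 low library, periodontitis 1 at 7.50 FPKM.

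Among Notch1, Notch2 and Notch3, Notch3 showed the widest spread. Notch3 lies on chromosome 7 (14138495 to 14189688) and had 12.6, 12.8 and 13.9 FPKM in the controls and 7.50, 15.2 and 12.1 FPKM in periodontitis 1 to 3. Periodontitis 1 held the lowest value of the 6 libraries and periodontitis 2 the highest. The difference was -0.21 ± 0.25 (SE; 95% interval -0.79 to 0.37), and it was 0.05 without periodontitis 1. Markers of vessel walls were low in the same library, but so were those of other tissues. Median deviations from the control mean there were -0.54 for mural cell and -0.70 for endothelial genes (log2 scale). They were -1.13 for fibroblast, -2.12 for skeletal muscle and 1.24 for suprabasal keratinocyte genes. The summed FPKM of 10 mural cell genes was 324 in periodontitis 1 and 444 and 709 in periodontitis 2 and 3, against 454 to 583 in controls, and that of 9 endothelial genes was 49.3, 72.3 and 84.8 against 73.5 to 82.3. None of these 19 markers was listed at 0 in any library, and their part in the Notch3 value was not tested.

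Notch1, the main receptor of stratified epithelium (chromosome 3, 3905453 to 3951025), had 14.2, 12.7 and 12.1 FPKM in the controls and 11.6, 14.7 and 10.7 FPKM in periodontitis. Periodontitis 2 was the highest library and the other periodontitis libraries were the lowest. The difference was -0.08 (95% interval -0.50 to 0.34). Notch2 (chromosome 2, 200187179 to 200320215) had 8.17, 7.37 and 9.18 FPKM in the controls and 6.57, 9.90 and 7.28 FPKM in periodontitis, the same arrangement of libraries around the controls, with a difference of -0.07 (95% interval -0.53 to 0.40). Notch1, Notch2 and Notch3 contributed 37.9%, 23.9% and 38.2% of their summed FPKM in the control mean. In periodontitis 1, where Notch3 was low, they contributed 45.1%, 25.6% and 29.3%.

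Rbpj, the DNA-binding protein through which all Notch receptors act (chromosome 14, 59658935 to 59735450), had 13.9, 12.6 and 12.5 FPKM in the controls and 12.6, 15.2 and 10.6 FPKM in periodontitis. As for Notch1, periodontitis 2 was highest and periodontitis 3 lowest, and the ratio of Notch1 to Rbpj stayed between 0.917 and 1.02 in all 6 libraries. The difference for Rbpj was -0.03 (95% interval -0.45 to 0.39).

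None of the target genes separated the groups. Hes1, a repressor of the bHLH family (chromosome 11, 74312806 to 74315248), had 44.1, 40.3 and 43.4 FPKM in the controls and 46.3, 46.5 and 31.4 FPKM in periodontitis 1 to 3. Periodontitis 1 and 2 lay above all controls and periodontitis 3 below all of them. The difference was -0.06 ± 0.20 (SE; 95% interval -0.53 to 0.40), and 0.12 without periodontitis 3. Nrarp (chromosome 3, 2396143 to 2398689) had 12.0, 12.5 and 10.1 FPKM in the controls and 13.1, 12.1 and 8.73 FPKM in periodontitis, with periodontitis 3 again the lowest, and a difference of -0.04 (95% interval -0.50 to 0.43). Hey1, a repressor related to Hes1 (chromosome 2, 95320283 to 95322696), had 2.52, 2.07 and 2.66 FPKM in the controls and 2.01, 2.82 and 2.26 FPKM in periodontitis. Its groups overlapped almost entirely, with a difference of -0.03 (95% interval -0.48 to 0.43).

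**Figure D2:**
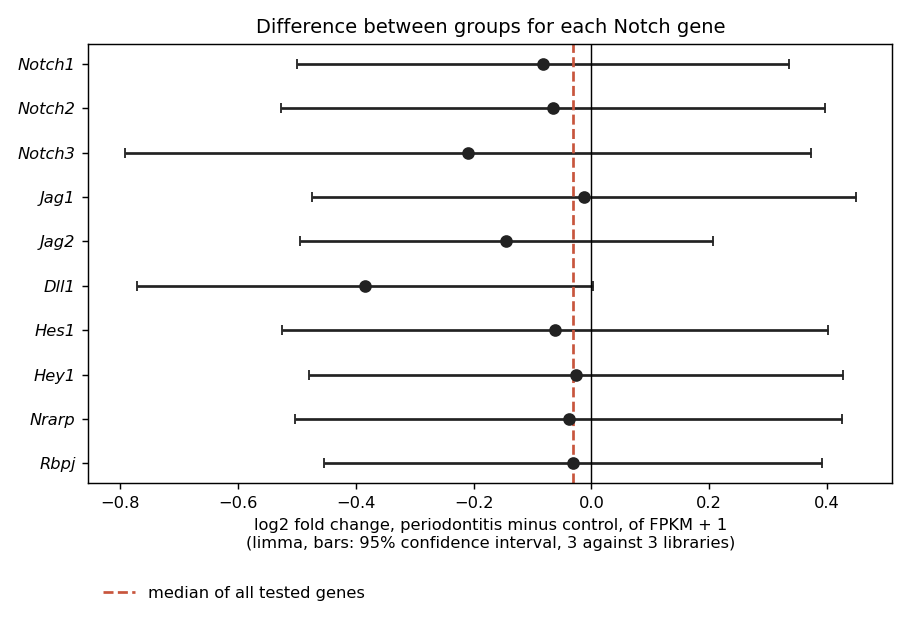
Log2 difference of each Notch gene between periodontitis and control (limma estimate with 95% confidence interval, 3 against 3 libraries; dashed line, median of all 13154 tested genes, -0.03). Every interval includes 0, and that of Dll1 ends closest to it, at 0.00201.

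The intervals show how much could have gone unseen. For Hes1 they allow anything from -0.53 to 0.40 on the log2 scale, and for Jag1 from -0.47 to 0.45, so these data do not show that the genes were equal in both groups. The mean log2 value was lower in periodontitis for 10 of the 10 genes, as it was for 57.4% of all tested genes, with a median of -0.06 against -0.03 over all tested genes. These directions depend on scaling and on single libraries. With quantile normalization 8 of the 10 were lower, and 7 were after rescaling without the 4 gland genes. Without periodontitis 3 it was 5 of the 10, and in periodontitis 2 alone it was 2, Dll1 and Jag2. Dll1 and Jag2 were lower under each of the alternatives in which they were tested. For Dll1, whose groups did not overlap, leaving out libraries could not have turned the sign. For Jag2 every periodontitis value lay below the control mean, so leaving out periodontitis libraries could not have turned its sign either.

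By the median of the 10 genes, libraries differed more within the periodontitis group than within the control group. The median SD on the log2 scale was 0.26 in periodontitis and 0.09 in controls, and over all tested genes it was 0.34 and 0.17. Dll1 went the other way, with an SD of 0.055 in periodontitis and 0.066 in controls. Periodontitis 3 was below the control mean for 10 of the 10 genes (median deviation -0.27), periodontitis 1 for 7 (median -0.17) and periodontitis 2 for 2 (median 0.16). Over all tested genes the medians were -0.15, -0.04 and 0.10 in the same order of libraries. Of the 10 lowest values, 5 were in periodontitis 3, 4 in periodontitis 1 and 1 (Dll1) in periodontitis 2, and 7 of the 10 highest were in periodontitis 2. Dll1 was the only one of the 10 genes for which periodontitis 2 held the lowest value.

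**Figure D3:**
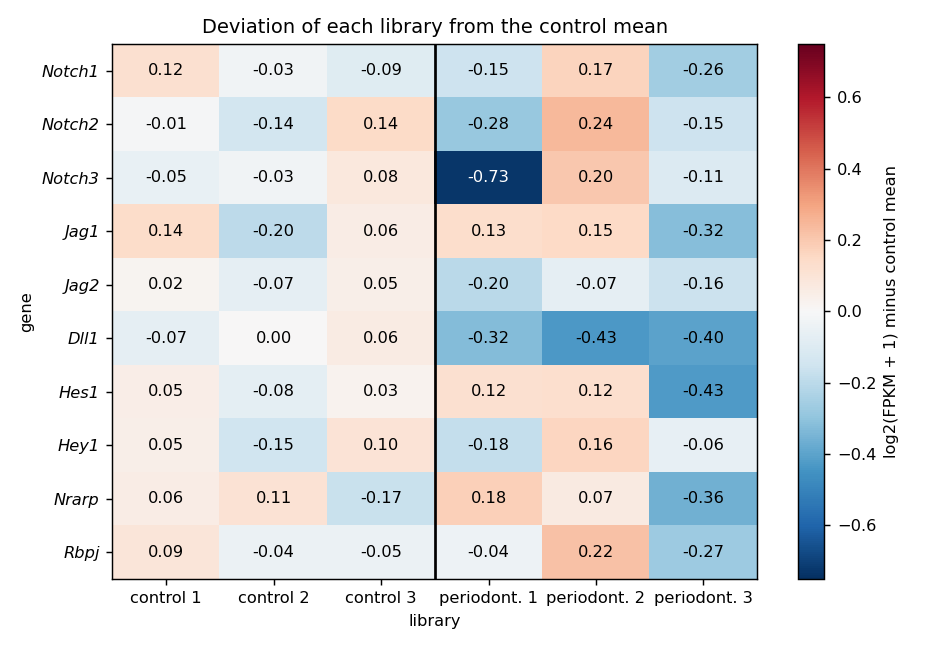
Deviation of each library from the control mean for the 10 Notch genes (log2(FPKM + 1); blue below, red above the control mean). In the row of Dll1 the 3 periodontitis libraries are alike (-0.32, -0.43 and -0.40), whereas Notch3 is low in periodontitis 1 (-0.73) and Hes1 in periodontitis 3 (-0.43).

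Markers of other tissue components also differed in level between the libraries, and none of them passed the adjusted test. Of 13 tested skeletal muscle genes, 11 lay below all controls in every periodontitis library, as did 3.59% of all tested genes. Their summed FPKM was 3943 to 5489 in controls and 1130, 2714 and 3236 in periodontitis 1 to 3. All 8 tested fibroblast genes had a lower mean in periodontitis, 2 of them without overlap (against the same 3.59%), with sums of 1468 to 1559 in controls and 629, 1329 and 1076 in periodontitis. None of the muscle or fibroblast markers was listed at 0 in any library, and their part in the Dll1 difference was not tested. Both lists were lowest in periodontitis 1, with median deviations of -2.12 for muscle and -1.13 for fibroblasts. Taste progenitor genes (sum 88.2 to 99.1 in controls; 54.2, 99.2 and 83.5 in periodontitis), taste cell genes (411 to 460; 297, 410 and 480) and basal keratinocyte genes (1313 to 1678; 2525, 1509 and 1051) had groups that overlapped in sum. Of 9 tested Schwann cell genes and 7 tested immune cell genes, 1 each lay below all controls without overlap (3.59% of all tested genes), with sums of 143 to 197 in controls against 60.9, 160 and 138 in periodontitis, and of 553 to 800 against 278, 628 and 458. Of 9 tested endothelial genes, 1 also lay below all controls (against the same 3.59%), 8 had a lower mean, and the median difference was -0.26. The B cell gene Ms4a1 of the immune list was listed at 0 in at least 1 library. Immediate early genes had sums of 571 to 726 in controls and 1994, 752 and 1255 in periodontitis, with 4 of 14 above all controls, and all 3 globin rows lay above the controls (1.97% of all tested genes lay above). Their part in the Dll1 difference was not tested either.

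**Figure D4:**
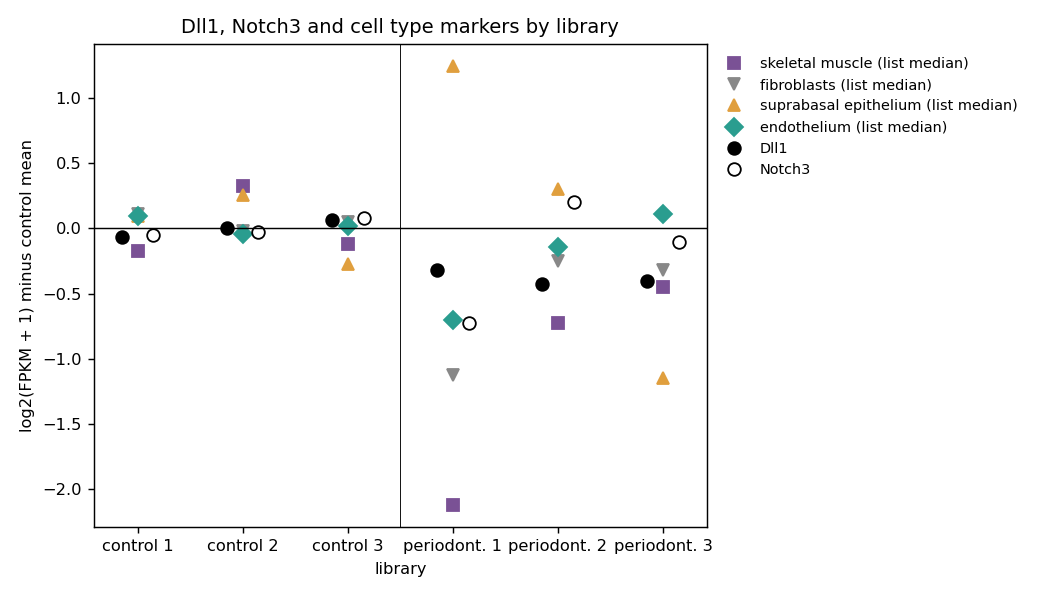
Deviation from the control mean by library (log2(FPKM + 1)) for Dll1, Notch3 and the medians of 4 cell type marker lists. Dll1 lies between -0.32 and -0.43 in the 3 periodontitis libraries. Notch3 and the endothelial median are low in periodontitis 1 (-0.73 and -0.70), and the suprabasal median runs from 1.24 to -1.15.

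The rest of the pathway was read from lists arranged by role, with 83 symbols of which 72 were listed and 67 tested. Of these, 0 passed the limma adjusted p. The 1 gene with an unadjusted p under 0.05 was Fhl1, and 3 genes lay without overlap below the controls and 2 above (background 3.59% and 1.97%). The median difference was -0.03, equal to that of all tested genes at 2 decimals.

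Among the remaining receptors and ligands, Notch4 (0.944 to 3.34 FPKM over the 6 libraries) and Dll4 (1.35 to 1.80 FPKM), both known from endothelium, were scarce and overlapped between groups. Dlk2, a Delta-like protein that lacks the receptor-binding domain of the classical ligands, had 5.71, 5.79 and 6.13 FPKM in the controls and 6.62, 6.42 and 7.67 FPKM in periodontitis. All periodontitis libraries lay above the controls, the opposite side from Dll1, with a difference of 0.20 (95% interval -0.18 to 0.58). Mfap2, a microfibril protein reported to bind proteins of the pathway, had 6.27, 6.11 and 7.63 FPKM in the controls and 3.59, 5.02 and 5.39 FPKM in periodontitis, all below the controls (-0.45, 95% interval -0.91 to 0.02). The related Mfap5 had -0.53 with overlapping groups. Of the other targets, Hes6 averaged 14.7 ± 5.15 FPKM in the control group and 13.8 ± 4.91 in the periodontitis group (SD, n = 3), and Heyl, known from vessel walls, had 0.382 FPKM in periodontitis 1 and 1.54 to 2.07 FPKM in the other libraries.

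None of the tested genes that modify and cut the receptors had groups without overlap. The glycosylation gene Gxylt2 was too low to be tested. It had 1.13, 0.978 and 0.751 FPKM in controls 1 to 3 and 0.117, 0.375 and 0.583 FPKM in periodontitis 1 to 3, without overlap. Cntn1, from the list of remaining receptors and ligands, was also too low to be tested. It too lay below all controls (0.556 to 0.922 FPKM in controls, 0.176 to 0.401 FPKM in periodontitis). The remaining untested pathway genes overlapped between groups, and the shares given above cover tested genes only. In the 10 tested glycosylation genes, 6 had a lower and 4 a higher mean. The fringe enzyme Mfng had a difference of -0.42, the xylosyltransferase Xxylt1 -0.44, the glycosyltransferase Eogt 0.28 and the glucosyltransferase Kdelc2 -0.26. In the 8 tested protease genes the median difference was 0.01, with 4 lower and 4 higher. Psenen, a gamma-secretase subunit, was the most abundant of them at 102 ± 33.3 FPKM in the control group and 107 ± 26.5 in the periodontitis group (SD, n = 3). Furin, which cuts the receptor during its maturation, had 33.4 to 34.6 FPKM in the controls and 17.7, 36.3 and 56.3 FPKM in periodontitis 1 to 3. The metalloproteinase genes Adam10 and Adam17 had differences of -0.06 and 0.05, and the gamma-secretase subunit Aph1a -0.23.

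Of the 7 tested coactivator genes, 6 had a lower mean, none without overlap, and the Mastermind genes Maml1 and Maml2 had -0.15 and -0.16. The acetyltransferase Kat2b had -0.23 and Snw1, a coregulator of Rbpj and the most abundant of the list, 0.14. Of the 19 tested corepressor genes, 13 had a lower mean. Fhl1, a LIM-domain gene with high expression in skeletal muscle, 1 isoform of which binds Rbpj, had 99.6, 149 and 98.8 FPKM in the controls and 38.2, 76.9 and 59.6 FPKM in periodontitis. All periodontitis libraries lay below all controls, with a difference of -1.01 ± 0.30 (SE). Its unadjusted limma p was 0.0101 and the adjusted p rounded to 1.0. The muscle genes named above had a median difference of -1.14, and their part in the Fhl1 value was not tested. Kdm5a, a histone demethylase that joins Rbpj at repressed targets, lay above all controls with a small difference of 0.14. The Groucho family genes Tle3 and Aes had -0.25 each, and Rita1, which carries Rbpj out of the nucleus, -0.25. Of the 15 tested genes of ligand and receptor turnover, 8 had a lower mean and 7 a higher, and 1 had groups without overlap. This was Neurl1, a ubiquitin ligase of Notch ligands, with 1.24, 1.36 and 1.18 FPKM in the controls and 0.278, 1.01 and 1.0001 FPKM in periodontitis (-0.39, 95% interval -0.97 to 0.19). Numb, an inhibitor of Notch receptors, had 0.18 and Mib1, a ubiquitin ligase that ligands need for their activity, 0.13. Dtx2 had 0.30 and Numbl -0.27, and the abundant ubiquitin ligase genes Nedd4 and Itch had 0.02 and 0.21.

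**Figure D5:**
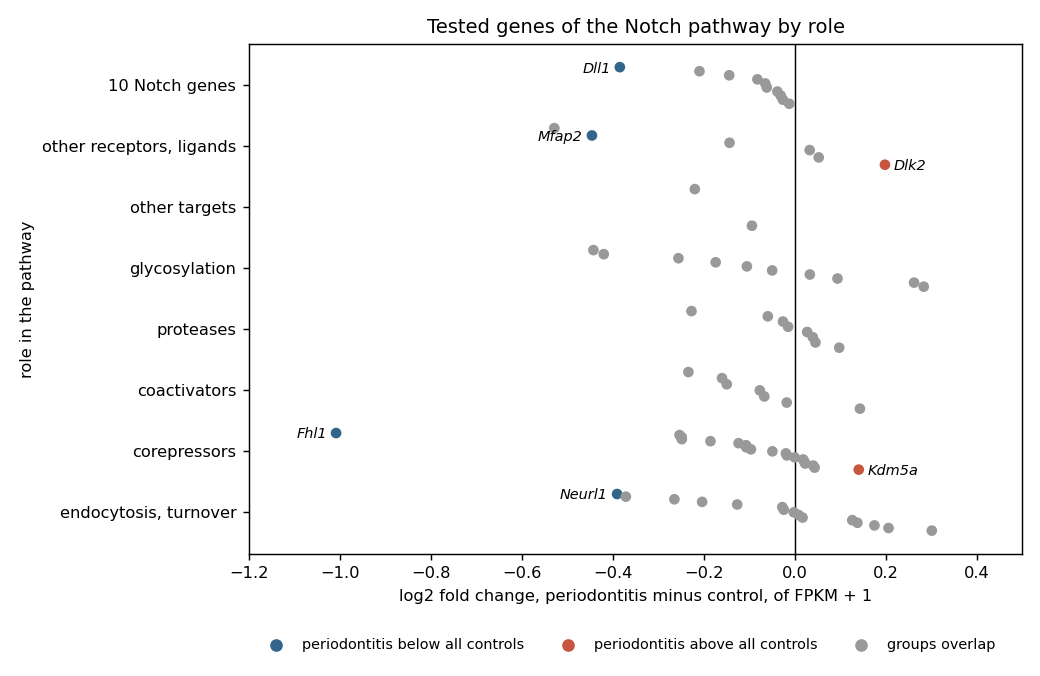
Log2 difference of every tested Notch pathway gene by role (1 point per gene, periodontitis minus control; blue and red points have groups that do not overlap). Fhl1 at -1.01 and Mfap5 at -0.53 lie farther than 0.5 from 0, and the other points lie closer.

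The genes whose profile over the 6 libraries was most like that of Notch1 were Vezf1, Cdkn1b and RGD1309621, with Pearson r of 0.995, 0.994 and 0.990 on the log2 scale. For Hes1 they were Orc4, Pdik1l and Cwc22 (r = 0.997, 0.997 and 0.996), and for Hey1 Atp5sl, Ammecr1l and Ppp2r1a (0.997, 0.992 and 0.987). These are the highest values among the tested genes outside the lists used here, over 6 libraries whose tissue markers differ, and they are given as a description.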

How the data were processed

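RNA from 6 rat tongue libraries (3 control, 3 periodontitis, from the disease label, with replicate numbers from the titles) was sequenced. The deposited values are FPKM per gene, per the file headers. The submitters' processing notes name FastQC, cutadapt, HISAT2 and StringTie without versions, and the mouse build mm10, although the tables carry rat identifiers and chromosomes. No source used here gives strand, annotation or depth, so reads of overlapping or antisense genes cannot be told apart and no counting interval was computed. FPKM is a share of the library total, so abundant gland transcripts lower all other values.

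From the deposited FPKM, log2(FPKM + 1) was tested with limma 3.58.1 in R 4.3.3 (mean-variance trend, group as the only term, two-sided, Benjamini-Hochberg over the 13154 genes that reached 1 FPKM in 3 or more libraries, 1251 left out, threshold 0.05). The function was run on simulated data with independent libraries and equal spread in both groups, whereas the spread here was wider in periodontitis. Its planted changes were larger than the differences of the 10 Notch genes, so that run does not bear on them. The Notch genes and all lists were chosen with earlier results of these data known. Named genes are the 10 Notch genes, and from each pathway list those with an unadjusted p under 0.05, among the 3 smallest p or among the 2 highest means. The 3 genes of most similar profile to Notch1, Hes1 and Hey1 and up to 3 abundant genes of each marker list were added, and 1 further gene of the rule is not reported here. Outside this rule, Notch4, Dll4, Adam17, Maml2, Numb, Mib1, Kdm5a, Gxylt2 and Cntn1 were named after their values were seen. Promoters are from RefSeq (GRCr8), matched by symbol. Alternatives were a pseudocount of 0.1, a block for the replicate number, quantile normalization, no filter, a mean filter of 5 FPKM, leaving out single libraries, rescaling without Lipf, Lcn1, Vegp2 and Bpifb1, limma without the trend, an adjusted p of 0.1 and, added after the data were seen, periodontitis 2 alone.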

Additional observations from a re-analysis of the deposited data

How the results depend on the processing

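No Notch gene and no other pathway gene passed the limma threshold under any alternative run, and the smallest limma adjusted p of a Notch gene was 0.594 (Dll1 without periodontitis 3). The count over all tested genes was 0. It became 3 with a block for the replicate number, 0 to 1 with each library left out (1 without control 1), 1 at an adjusted p of 0.1 and 1 in periodontitis 2 alone, a library with no spread of its own that is assumed to vary like the controls. None of these genes is a Notch pathway gene. Equal replicate numbers deviated together with r = 0.09, 0.03 and 0.46, and of the 3 numbers only number 3 correlated best with its own. These values cannot decide whether libraries of equal number share more than the number. The block left the Dll1 difference at -0.38 (SE 0.22). Dll1 had an unadjusted limma p under 0.05 in 2 alternatives, without periodontitis 1 and without the trend. Its difference ran from -0.48 with a pseudocount of 0.1 to -0.29 with quantile normalization. Dll1 and Hey1 fall below a mean of 5 FPKM and have no value there. The sign turned in 2 to 6 alternatives for the other 8 genes beside Dll1 and Jag2, none of them past the threshold. Leaving out periodontitis 1, 2 or 3 gave -0.00 to -0.17 for the median of the 10 genes, and periodontitis 2 alone gave 0.16, where the median of all genes was 0.10. No depth is given, so what it allows for low genes such as Hey1 could not be computed.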

Other observations

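Hes1 stood at 17.5, 19.5 and 16.3 times the FPKM of Hey1 in controls 1 to 3 and at 23.1, 16.5 and 13.9 times in periodontitis 1 to 3. Relative to Rbpj, Hes1 had 3.18, 3.21 and 3.46 times the FPKM in the controls and 3.67, 3.05 and 2.98 times in periodontitis, so in both ratios periodontitis 1 was the highest library and periodontitis 3 the lowest. The summed FPKM of the 3 receptors was 35.0, 32.9 and 35.2 in the controls and 25.6, 39.9 and 30.1 in periodontitis, and that of the 3 ligands 29.8, 26.4 and 29.8 and 26.8, 27.9 and 23.4.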
